A study of Ovis aries with 16 samples.

Results

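Fetal sheep that had been hypoxic after an injection of ketamine were compared with fetal sheep that had been neither hypoxic nor given ketamine. The members were chosen by their labels and were the 7 arrays of hypothalamus titled hypoxia plus ketamine (HK, n = 4) or normoxia (NC, n = 3), out of 16 arrays in the series. All were Suffolk fetuses in late gestation with implanted catheters, with 1 array for each fetus. HK fetuses received ketamine into a vein and then 30 min of hypoxia through the air breathed by the ewe, and NC fetuses received saline and 30 min of normoxia. Both recovered in normoxia for 23.5 h, and tissue was taken 24 h after the stimulus began. The other arrays came from fetuses given saline and hypoxia (HC, n = 5) or ketamine and normoxia (NK, n = 4). They entered the same linear model, which shared a single estimate of the spread. HK differed from NC in both the hypoxia and the drug, so their parts in a difference between HK and NC cannot be told apart in it. HC values are given beside it for many of the genes, and NK values for only a few. Most fetuses in the study were twins, and because no label says which fetuses shared a ewe, siblings could not be accounted for.

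Ketamine, an anesthetic, acts by blocking NMDA receptors, a class of receptor for the excitatory transmitter glutamate. Lack of oxygen releases glutamate in brain, and it is also followed by activation of microglia, the resident macrophages of brain, which sense microbial products and damaged cells through Toll-like receptors and then make prostaglandins, cytokines and chemokines through the transcription factor NF-kappaB. Hypoxia itself acts on transcription through hypoxia-inducible factors, which induce glucose transporters and glycolytic enzymes. The hypothalamus makes the peptides that govern appetite, growth, reproduction and the pituitary response to stress. The comparison of HK with NC asks which differences from normoxic fetuses given saline were present when hypoxia had been preceded by ketamine.

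Values are log2 signal relative to the 75th percentile of the array, so a difference of 1 is a change of 1 doubling. A probe is said to be called when the unadjusted two-sided p of limma was under 0.05, and errors after ± are standard errors of the fit. An array had from 71.8% to 80.6% of its probes well above background, a flag of the scanner software that is called above background from here on. The arrays lay on 2 slides, each scanned once. Slide 1 held NC1, NC2, HK1 and HK2, and slide 2 held NC3, HK3 and HK4. Of 25 tested hypothalamic genes 19 were above background on all 7 arrays, with somatostatin (SST), a check chosen after its values were seen, at 3.90 to 4.78 in NC and 3.81 to 4.99 in HK. No tested probe carried the name of a gene on the neuron and oligodendrocyte lists. Because the tissue was measured in bulk, fewer cells of a type and less RNA per cell cannot be told apart.

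Each probe of the array is 60 bases long. The stretches below are bases 31 to 60 of the probes on which the main results rest. They are shown because a result of this kind is the brightness of a particular stretch of transcript, because genes with a pair of probes did not always agree, and because the unnamed probes have no other identity. Capitals mark the letters AATAAA, the usual signal for polyadenylation, read on the strand of the probe. They were present in 3.86% of the 15008 stretches of the array.
PTGS2, probe at transcript position 3301: ttggtgcctcagactatgtatgattaaatt
PTGS2, dim probe at transcript position 3117: aatttcattaaagagaaataactcagggga
LYZ, probe at transcript position 387: accagttacattcagggttgtggagtgtaa
CLEC6A, probe at transcript position 468: aaaaggaaatcaatatgtgagatgaagaag
SLC11A1, probe at transcript position 2089: gtctgaaaatgctaAATAAAcgctgttgtg
CXCL10, probe at transcript position 1047: ctttccaaAATAAAagtaatgttctctccc
TNF, probe at transcript position 1618: agaAATAAAgtgtcctgagaaaagaaaaaa
EIF4GI, probe at position 99 of an expressed sequence tag: aaggcctggaaacccagtagcaagcggaca
Unnamed probe A_70_P058496: tagctcagagacagaattagacgttttgct
Unnamed probe A_70_P044251: aagagtctagcagttttccattcagtatca
Unnamed probe A_70_P033366: tttccagacaaccgcattgttccccaagac
Each of these stretches was found in 1 probe of the array. The transcript positions count from the start of the sequence the array was designed on.

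Of 12250 probes tested, 837 (6.83%) differed between HK and NC. Of these, 327 (2.67% of those tested) were higher in HK and 510 (4.16%) were lower. None passed after Benjamini-Hochberg adjustment in limma, and the smallest adjusted p was 0.336. In the same model, 983 probes (8.02%) differed between HC and NC, 133 (1.09%) between NK and NC, and 848 (6.92%) between HK and HC, and none of these passed after adjustment either. The HK and NC arrays did not overlap at 956 probes (7.8%), of which 490 were among the 837. The median difference over all tested probes was 0.01. Among called probes the median was 0.45 for those higher in HK and -0.55 for those lower, and 124 differed by more than 1. The count rested in part on single fetuses, since it was 1388 without HK2 and 532 without NC2. Named probes made up 85 of the calls, 6.46% of the 1315 named probes tested, which is near the share over all probes. They were 50 probes higher in HK and 35 lower.

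**Figure D1:**
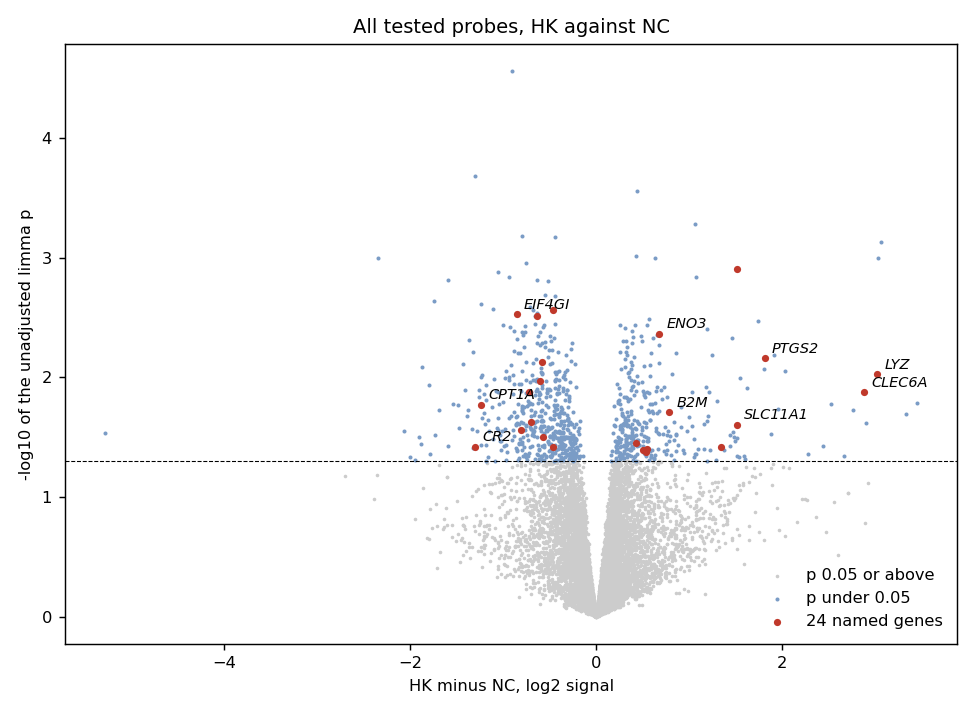
Difference between HK and NC in log2 signal (x axis) against the -log10 unadjusted p-value of limma (y axis) for the 12250 tested probes, with a dashed line at the threshold for a call. The 24 genes named by rule are in red. Most of the 837 called probes lie within 1 log2 unit of 0, and LYZ and CLEC6A are near 3.

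Among the 12 named genes that rose most with arrays that do not overlap, the first 4 were LYZ, CLEC6A, PTGS2 and SLC11A1. Lysozyme (LYZ), an enzyme of phagocytes that cuts bacterial cell walls, CLEC6A, a lectin receptor of myeloid cells for fungal sugars, PTGS2, the inducible cyclooxygenase that starts prostaglandin synthesis, and SLC11A1, a metal transporter of the macrophage phagosome, were each called higher in HK. The other genes among the 12 largest rises were STAR, GUCA2A, B2M, ENO3, SLC25A10, LDHA, SLC2A3 and ABCB1. These genes and the 12 falls were chosen for a called difference and for arrays that do not overlap, so the absence of overlap is a condition of their choice and not a further result. The calls depended on the background handling. With normexp background correction and the 75th percentile 22 of the 24 named genes lost their call, and with the deposited log2 values 11 did.

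PTGS2 was -2.32, -2.47 and -2.25 in NC1 to NC3 and -0.65, 0.62, -1.72 and -0.37 in HK1 to HK4. The NC fetuses were close to each other, and HK ranged from just above them in HK3 to far above them in HK2. The difference was 1.82 ± 0.57 (SE), a 3.52-fold higher signal, with an adjusted p of 0.708 by limma. HC was 2.96 ± 0.55 above NC, and HK was 1.14 ± 0.50 below HC (called), so PTGS2 in HK lay between NC and HC. NK was 0.49 above NC (not called). Within slides the difference between HK and NC was 2.38 on slide 1 and 1.20 on slide 2. The dim PTGS2 probe, above background on 1 NC and 1 HK array, differed by -0.47 ± 0.82 and was not called.

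LYZ was -7.30, -5.65 and -6.58 in NC and -4.24, -0.93, -5.43 and -3.34 in HK. HK3 was close to NC2 and HK2 was far above the rest. The difference was 3.03 ± 1.00 with a 95% interval from 0.87 to 5.18, and only 1 of the 3 NC arrays was above background against all 4 HK arrays. With the deposited log2 values the LYZ difference was 0.86 and not called, and with normexp and the 75th percentile the call was lost too. The other LYZ probe, whose sequence overlaps the first, gave 2.52 ± 0.93. HC was 2.43 above NC at the first probe, and HK was 0.60 ± 0.88 above HC, a difference that was not called.

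CLEC6A was -7.88, -8.01 and -7.88 in NC and -6.84, -2.54, -5.23 and -5.56 in HK. No NC array and 3 of 4 HK arrays were above background, so the fold is an approximate bound, 2.76-fold for the HK mean. The dim HK array entered that mean at its own value. This bound carries no error for the spread between fetuses. The fitted difference was 2.88 with a 95% interval from 0.70 to 5.06. CLEC6A was not called with normexp and the 75th percentile or with the deposited log2 values (0.49). A further CLEC6A probe, with 2 of 4 HK arrays above background, gave an approximate bound of 2.2-fold for the means. There HK3 was at -7.50 beside -7.52 to -7.76 in NC. Its fitted difference was 2.29 with a 95% interval from 0.08 to 4.49. HK was 0.25 ± 0.89 above HC at the first probe, a difference that was not called, with a 95% interval from -1.67 to 2.16. No NC or NK array was above background at either probe, so both passed the filter only through HC and HK arrays.

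SLC11A1 was -4.16, -4.38 and -4.43 in NC and -1.90, -2.71, -3.75 and -2.86 in HK. All 4 HK fetuses lay above NC, and HK1 was the highest. The difference was 1.52 ± 0.60, with HC 2.26 ± 0.58 above NC and HK 0.74 ± 0.53 below HC (not called). A further probe of SLC11A1 gave 1.59 ± 0.72, but there HK3 (-5.57) lay within NC. The SLC11A1 call was lost without NC2, without NC3 or without HK1, with differences of 1.21 to 1.83 over the arrays left out in turn. It was also lost with the deposited log2 values and with normexp, where the difference was 0.41 after scaling to the 75th percentile.

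B2M encodes beta-2-microglobulin, the light chain of class I antigen-presenting molecules, and was among the brighter genes. It was 3.97, 3.90 and 3.98 in NC and 4.52, 4.96, 4.52 and 4.95 in HK. The NC fetuses were nearly equal, and HK2 and HK4 were the highest. HK was 0.79 ± 0.30 above NC, a 1.73-fold higher signal, beside 0.77 ± 0.29 for HC, and HK and HC differed by 0.02 ± 0.26. Its other probe starts 1 base away and so is no independent measurement.

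Among the smaller rises were SLC2A3, LDHA and ENO3. SLC2A3, the main glucose transporter of neurons, was 3.46, 3.12 and 3.37 in NC and 4.07, 3.82, 3.61 and 3.83 in HK. The difference was 0.51 ± 0.23, about 1.43-fold, and 0.43 ± 0.23 (not called) at the other probe. HC was 1.06 ± 0.22 above NC and HK was 0.55 ± 0.20 below HC (called), so SLC2A3 in HK lay between NC and HC, as did PTGS2. LDHA, the lactate dehydrogenase subunit of glycolysis, was 1.77, 1.57 and 1.51 in NC and 2.07, 2.52, 2.02 and 2.02 in HK. HK2 stood above the other HK fetuses. The difference was 0.54 ± 0.24, beside 0.60 ± 0.23 for HC, and HK and HC differed by -0.06 ± 0.21. The other LDHA probe was at 0.53 ± 0.27 and was not called. ENO3, an enolase of glycolysis, was 0.68 ± 0.20 higher in HK, with all 4 HK arrays from -4.83 to -4.07 and all NC arrays from -5.30 to -5.00. Its brighter probe was 0.77 ± 0.34 higher (called), but there HK2 (-4.35) lay within NC. HK1 (-2.39) stood above the other HK arrays (-4.35 to -3.87) at that probe. SLC2A3 and LDHA lost their calls without NC2, without NC3, without HK1 or without HK2, and SLC2A3 also without HK4, with differences that stayed between 0.41 and 0.61.

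Of the remaining rises, ABCB1, the drug efflux pump of the blood-brain barrier, was 0.43 ± 0.19 higher in HK. HK1 (-0.56) stood above the other HK arrays (-1.44 to -1.32), and without HK1 the difference was 0.23 and not called. The ABCB1 call was also lost without any 1 of the NC arrays. Its other probe was at 0.32 ± 0.16, with arrays that overlapped, and was not called. SLC25A10, a mitochondrial carrier of dicarboxylates, was 0.55 ± 0.24 higher, with 1 of 3 NC arrays above background, and its call was lost without NC1, NC3, HK1 or HK2 (0.38 to 0.67). At SLC25A10 HC was 0.54 ± 0.23 above NC (called) and NK was 0.44 ± 0.24 above NC (not called). STAR, which delivers cholesterol to mitochondria for steroid synthesis, and GUCA2A, the gut peptide guanylin, were not well above background on any HK or NC array at the probes chosen, so no fold is given for them. GUCA2A also lost its call without NC2, NC3, HK1, HK3 or HK4. Its chosen probe was tested only because 1 NK and 2 HC arrays were above background, and that of STAR only because 3 HC arrays were. The other GUCA2A probe, which starts at 202 beside 201, was too dim to be tested. Its means were -6.81 in NC and -7.22 in HK, the opposite direction. Another STAR probe was above background on 2 HK and no NC arrays. The approximate bound on the rise of its HK mean was 1.4-fold.

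The 12 largest falls were in CR2, CPT1A, EIF4GI, EIF3A, COL4A3, COL3A1, SLC25A37, AGGF1, COL2A1, GRIA4, KIF5B and CBX5. In 11 of these 12 genes HK2 was the HK fetus nearest to NC, and in 9 of 12 HK1 was the farthest, whereas among the 12 rises HK2 was the farthest in 6 and HK1 in 5.

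CPT1A, which admits fatty acids to mitochondria for oxidation, was -0.98, -1.52 and -0.99 in NC and -3.29, -1.55, -2.41 and -2.36 in HK. HK2 was next to NC2 and HK1 was far below. CPT1A fell by 1.24 ± 0.46, a 2.36-fold lower signal, and an overlapping probe fell by 1.17 ± 0.45. HC was 0.60 ± 0.44 below NC and was not called. The CPT1A call was lost without NC1, without NC3 or without HK1, with differences from -1.52 to -0.94.

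A pair of genes of translation initiation were lower in HK than in both NC and HC. The gene named EIF4GI on the array, the scaffold that joins the mRNA cap to the ribosome, was -2.83, -2.91 and -2.73 in NC and -4.17, -3.03, -4.04 and -3.45 in HK. It fell by 0.85 ± 0.24, and this call was kept when any single NC or HK array was left out. HC was -0.03 ± 0.23 from NC, and HK was 0.82 ± 0.21 below HC (called). EIF3A, a core subunit of the initiation factor that binds the small ribosomal subunit, was 1.91, 1.62 and 2.00 in NC and 0.22, 1.48, 1.14 and 1.31 in HK. HK1 was by far the lowest. It fell by 0.81 ± 0.33 and by 0.79 ± 0.30 at its other probe, with HC at -0.15 ± 0.31 from NC and HK 0.66 ± 0.29 below HC (called). The EIF3A call was lost without NC1, without NC3 or without HK1, the last giving -0.53. Of 17 ribosomal protein genes tested none was called, and their differences ran from 0.02 to 0.20 with a median of 0.10.

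Collagen genes were among the falls. COL4A3, a chain of basement membrane collagen, was -4.51, -4.63 and -4.71 in NC and -5.67, -4.74, -5.48 and -5.46 in HK. It fell by 0.72 ± 0.25, with HC 0.12 ± 0.24 above NC and HK 0.84 ± 0.22 below HC (called). COL2A1, a fibrillar collagen best known from cartilage, was -0.85, -0.91 and -1.12 in NC and -1.77, -1.68, -1.54 and -1.17 in HK, with HK4 next to NC3. It fell by 0.58 ± 0.18, and HK was 0.42 ± 0.16 below HC (called). HC was 0.16 ± 0.18 below NC and NK was 0.34 ± 0.18 above NC, and neither was called. The within-slide differences of COL2A1 were -0.84 and -0.24. COL3A1, a fibrillar collagen of vessel walls, fell by 0.70 ± 0.27 at the probe chosen, but its brightest probe differed by -0.27 ± 0.35 and was not called. Another probe, which starts at 484 and overlaps the chosen one at 482, fell by 1.42 ± 0.46 with 1 of 4 HK arrays above background. HC was 0.68 ± 0.26 below NC at the chosen probe, and its call in HK was lost without NC1 or HK1 (-0.83 to -0.49).

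SLC25A37, the carrier that brings iron into mitochondria, fell by 0.63 ± 0.18, with HC at -0.10 ± 0.17 from NC and HK 0.53 ± 0.16 below HC. AGGF1, a factor of vessel growth, fell by 0.60 ± 0.20 and by 0.59 ± 0.19 at its other probe. CBX5, a protein of silent chromatin, fell by 0.46 ± 0.13, and HC was 0.39 ± 0.12 below NC. GRIA4, a subunit of the AMPA class of glutamate receptor, fell by 0.57 ± 0.24, while its brighter probe was at -0.43 ± 0.21 and was not called. KIF5B, a motor protein of axonal transport, fell by 0.47 ± 0.20. The GRIA4 call was lost without NC1, NC3, HK1 or HK3 (-0.67 to -0.45) and that of KIF5B without NC2, NC3, HK1 or HK3 (-0.57 to -0.28). CR2, a complement receptor of B cells, fell by 1.30 ± 0.57 at a probe above background on 1 HK array, and its brighter probe was at 0.21 ± 0.90, so the pair disagreed. The CR2 call was lost without any 1 array other than HK2 (-1.63 to -1.13).

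**Figure D2:**
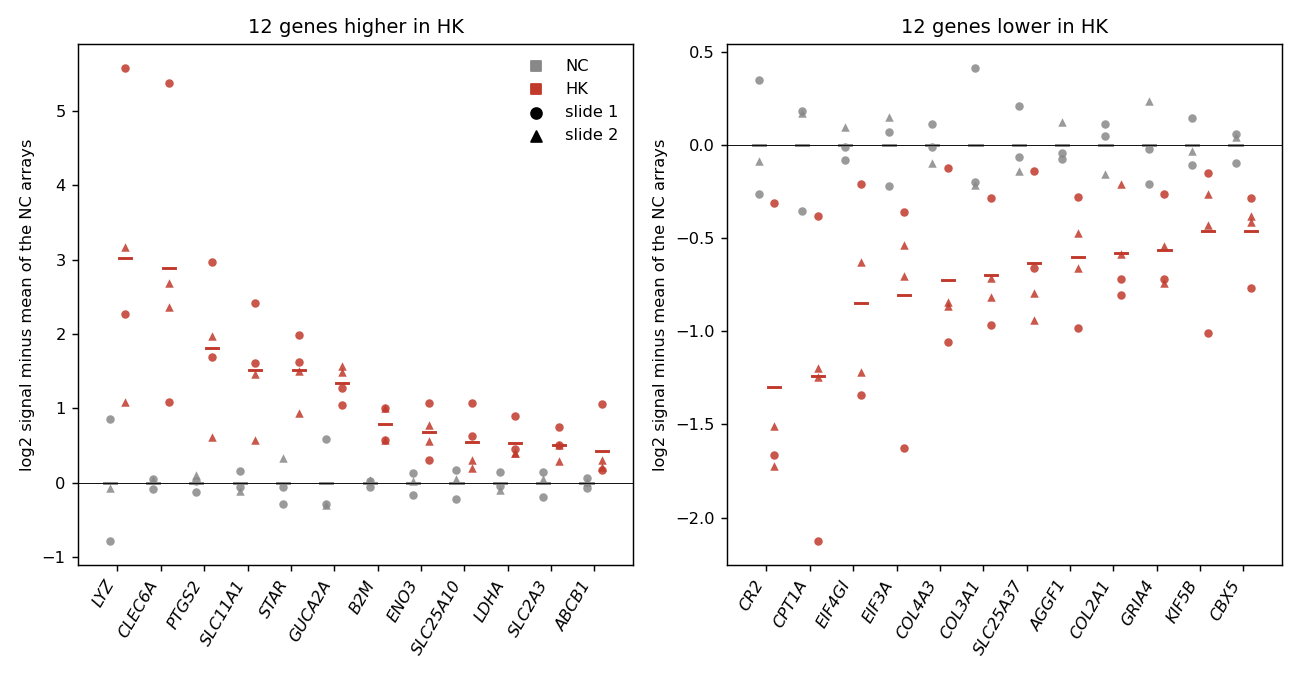
Log2 signal of each NC and HK array minus the mean of the NC arrays (y axis) for the 12 named genes with the largest rises (left) and falls (right), with short bars at group means and circles and triangles for slides 1 and 2. HK values spread widely for LYZ and CLEC6A, and among the falls HK2, a circle, is the HK array nearest to NC in 11 of 12 genes.

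A panel of 14 genes of Toll-like receptor signalling and apoptosis, the one followed up by PCR, came next. Tested probes named 10 of them, each taken by its brightest probe, and CASP8, CRH, NFKB1 and OAS1 had none. The study chose these genes on these samples, so they are not independent evidence of a direction. PTGS2 was the only one of the 10 called in HK against NC, beside 6.83% of all probes, and the median difference was 0.33 beside 0.01 over all probes. In HC against NC, 9 of the 10 were called, all higher, beside 8.02% of all probes, with a median difference of 1.36, and in NK against NC none was called, with a median of 0.16. HK was below HC at 9 of the 10 and called lower at 5, namely CD14, NFKBIA, PTGS2, TLR2 and TNF, beside 6.92% of all probes called in either direction. Without HK1 or without HK3, 2 genes were called in HK against NC, and with the HC arrays left out of the model 4 were.

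The receptors of the panel were not called in HK against NC in the model over all groups. TLR2, which detects bacterial lipopeptides, was -4.30, -4.003 and -3.79 in NC and -3.77, -3.56, -4.23 and -3.21 in HK, and the groups overlapped. HK differed from NC by 0.33 ± 0.31 and was 0.83 ± 0.27 below HC (called). TLR4, the receptor for bacterial lipopolysaccharide, was -5.07, -5.15 and -5.21 in NC and -4.90, -4.62, -4.92 and -4.92 in HK. All HK arrays were above NC, but the difference of 0.30 ± 0.31 was not called, with HC 0.79 ± 0.30 above NC. TLR4 was called when the HC arrays were left out of the model or when the model held HK and NC alone. CD14, the co-receptor for lipopolysaccharide, was -2.90, -2.87 and -2.74 in NC and -1.68, -2.63, -3.61 and -3.45 in HK. HK1 and HK2 were above NC, HK3 and HK4 were below it, and these pairs lay on different slides (0.73 on slide 1 and -0.78 on slide 2). The pooled difference was -0.00 ± 0.62, and HK was 1.35 ± 0.55 below HC (called).

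The signalling genes behind these receptors were not called in the model over all groups. MYD88, the adaptor of Toll-like receptors, was -4.15, -4.48 and -4.38 in NC and -4.02, -3.63, -4.18 and -4.21 in HK, a difference of 0.32 ± 0.24. NFKBIA, the inhibitor that NF-kappaB itself induces, was 0.48, 0.79 and 0.70 in NC and 1.68, 1.55, 0.56 and 1.33 in HK. Of the 4 HK fetuses, 3 were above every NC fetus and HK3 was within them. The difference was 0.62 ± 0.38 (not called), beside 1.37 ± 0.36 for HC, and HK was 0.75 ± 0.33 below HC (called). The difference in NFKBIA without HK3 was 0.86 and was called. NFKBIA was also called when the HC arrays were left out of the model and on slide 1 alone.

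The secreted products varied among HK fetuses. IL1B, an early cytokine of macrophages, was -2.25, -2.55 and -2.18 in NC and -2.35, -2.14, -1.87 and -1.64 in HK, a difference of 0.33 ± 0.44. TNF, another such cytokine, was -4.63, -5.09 and -5.37 in NC and -5.54, -3.17, -5.66 and -5.43 in HK. HK2 stood alone above NC, and the difference was 0.08 ± 0.65 with all HK arrays and -0.51 without HK2. HK was 1.63 ± 0.57 below HC at TNF (called). PTX3, a soluble pattern recognition protein, was -4.12, -4.63 and -4.09 in NC and -2.70, -3.06, -4.15 and -3.39 in HK. The difference was 0.96 ± 0.74 (not called), beside 2.30 ± 0.71 for HC. PTX3 was called without the HC arrays, with HK and NC arrays alone, and on slide 1 alone. Its other probe was at 0.86 ± 0.71 (not called), with all HK arrays above NC. CXCL10, a chemokine induced by interferon that draws lymphocytes, was -2.08, -1.37 and -3.21 in NC and -3.97, 3.60, -1.71 and 3.10 in HK. HK2 and HK4 were far above NC, HK1 was below every NC fetus and HK3 was within them. The difference was 2.48 ± 1.82 with a 95% interval from -1.43 to 6.39 (not called), and without HK1 it was 3.88 and called. HC was 4.43 ± 1.74 above NC at CXCL10 (called). Its standard deviation was 2.81 among HC fetuses and 3.70 among HK fetuses.

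**Figure D3:**
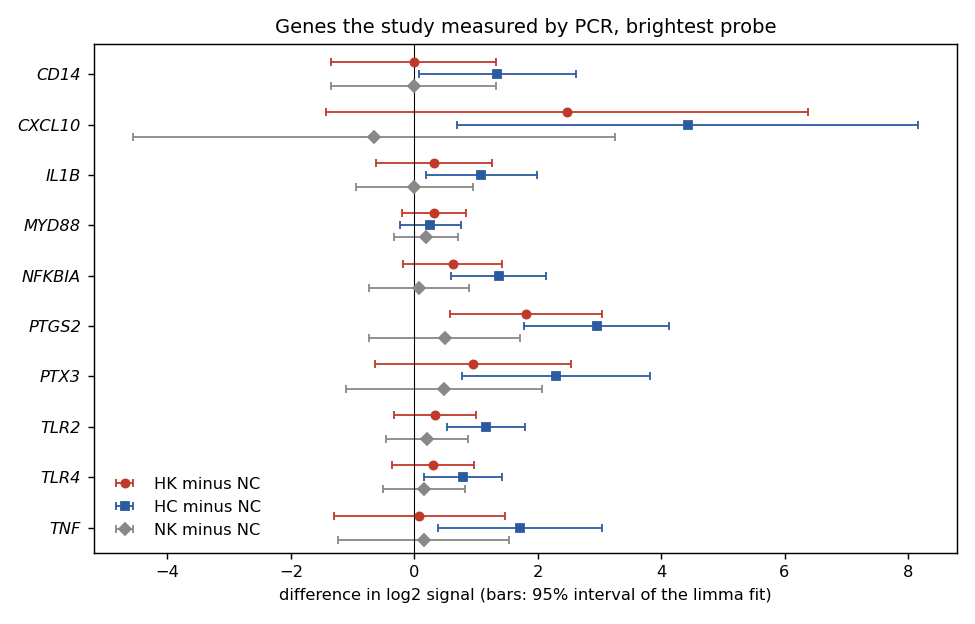
Difference in log2 signal (x axis) from NC for HK, HC and NK at the 10 tested genes of the PCR panel, each by its brightest probe, with bars for the 95% interval of the limma fit. The 3 differences share the NC arrays. The HK interval excludes 0 at PTGS2 alone, and the HC interval includes 0 at MYD88 alone.

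The same fetuses HK2 and HK4 stood apart in other genes. This pattern was seen in the values and the genes were not chosen beforehand for it. IRF1, a transcription factor induced by interferon, was -3.35, -3.86 and -3.91 in NC and -3.55, -0.37, -3.68 and -1.31 in HK, so that HK2 and HK4 were above NC and HK1 and HK3 were within it. PSMB8, a proteasome subunit induced by interferon, was -3.001, -1.43, -2.95 and -1.81 in HK1 to HK4 and -3.53 to -3.14 in NC. The antiviral genes MX1 and ISG15 did not follow this order, since HK2 and HK4 were within the NC range for both (0.71 and 1.02 for MX1, beside 0.38 to 1.77). Of the 8 tested genes of the interferon list none was called in HK against NC, and their median difference was 0.14, with a range from -0.43 to 2.48. In HC against NC 2 of the 8 were called, both higher, beside 8.02% of all probes, with a median of 0.85. HK against HC gave a median of -1.20 and no call.

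Of the 6 tested genes on the list of neutrophils and lymphocytes, the 3 given here were also highest in HK2 and HK4. The antimicrobial peptide CATHL3 was -3.65, -1.91 and -2.65 in NC and -2.83, 2.87, -3.23 and 2.51 in HK. The related peptide named BAC5 was -2.67, -0.75 and -2.01 in NC and -1.73, 2.78, -2.12 and 2.81 in HK. LTF, the iron-binding protein of neutrophil granules, was -4.01, -1.21, -5.31 and -1.54 in HK and -4.49 to -3.83 in NC. In each of the 3 genes HK2 and HK4 were above NC. None of the 6 tested genes on the list of neutrophils and lymphocytes was called in HK against NC. All 6 differences were positive with a median of 0.85, the highest among the lists, and the mean level of the list ran from -4.14 to -3.51 in NC and from -4.10 to -0.92 in HK. In HC against NC 2 of the 6 were called, both higher, beside 8.02% of all probes, with a median of 1.36. HK against HC gave a median of -0.145 and no call. LYZ, which neutrophils and macrophages both make, was also highest in HK2 and next in HK4. The part of blood cells in these values was not tested.

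**Figure D4:**
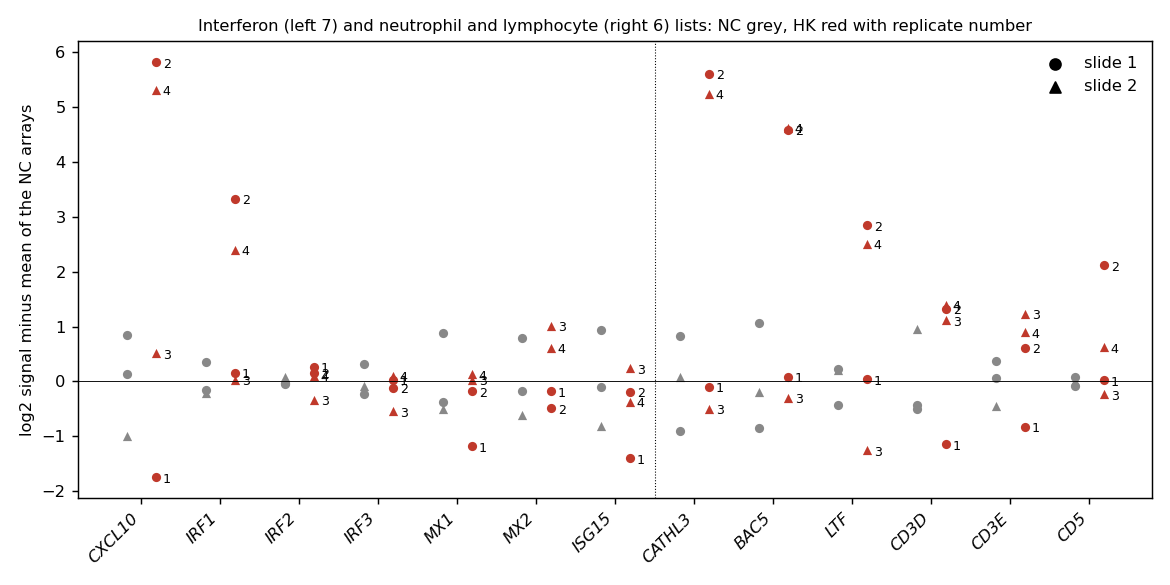
Log2 signal of each NC (grey) and HK (red) array minus the mean of the NC arrays (y axis) for 7 of the 8 tested genes of the interferon list (left of the dotted line) and the 6 of the list of neutrophils and lymphocytes (right), with circles and triangles for slides 1 and 2. HK replicates 2 and 4 lie above the NC arrays at CXCL10, IRF1, CATHL3, BAC5 and LTF, and no gene shown was called.

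The other lists are described by counts and medians, each gene by its brightest probe, beside a called share of 6.83% and a median of 0.01 over all probes. Of 20 cytokines and chemokines 1 was called, the macrophage cytokine IL18, which was -2.79, -2.69 and -2.93 in NC and -3.26, -3.01, -3.18 and -3.19 in HK. It fell by 0.36 ± 0.14, with HC at 0.11 ± 0.14 from NC and HK 0.47 ± 0.13 below HC (called). A further IL18 probe fell by 0.33 ± 0.19 and was not called. The IL18 call was lost without NC1, NC2 or HK1 (-0.42 to -0.30). The list's median was 0.07. None of 9 cytokine and chemokine receptors was called, and of 16 genes of pattern recognition and NF-kappaB CLEC6A alone was, with a median of 0.28. At its brightest probe, the one starting at 398, this call was lost without NC1, NC2, NC3, HK2 or HK4, and the difference without HK2 was 1.28. Of 15 eicosanoid and oxidant genes, PTGS2 and PTGER3, a receptor for prostaglandin E, were called higher. PTGER3 was -2.88, -3.20 and -2.98 in NC and -2.51, -2.89, -2.04 and -2.04 in HK, 0.65 ± 0.27 higher, while an overlapping probe was at 0.30 ± 0.33 and was not called, and the call was lost without NC2, NC3, HK3 or HK4 (0.54 to 0.83). None of 5 complement and coagulation genes was called.

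Among 11 tested microglia and macrophage genes, LYZ and SLC11A1 were called higher and the median was 0.13, beside 8 called higher in HC against NC (8.02% of all probes called) with a median of 0.79. At the brightest LYZ probe the call was lost without NC1 (2.20) or without HK2 (1.67). CD14 and the complement C5a receptor C5AR1 were near NC in HK, at -0.00 ± 0.62 and -0.03 ± 0.17, and HK was 0.59 ± 0.15 below HC at C5AR1 (called). The mean level of the list was -3.58 to -3.19 in NC and -3.15 to -2.38 in HK. Of 19 genes of endothelium and barrier, SELP and ABCB1 were called higher, with a median of 0.21. SELP, or P-selectin, which catches leukocytes on activated endothelium and is also carried by platelets, was -4.98, -5.33 and -6.87 in NC and -1.58, -1.74, -5.56 and -2.43 in HK. HK3 lay within NC and the other HK fetuses were far above it. The difference was 2.90 ± 1.15, with 2 of 3 NC arrays above background. At the other SELP probe, with no NC and 3 of 4 HK arrays above background, the approximate bound on the rise of the HK mean was 7.19-fold. The fitted difference there was 3.34 with a 95% interval from 0.61 to 6.07, and HK3 lay within NC. That probe passed the filter only through HC and HK arrays, since no NK array was above background either. The SELP call was lost without NC3, HK1 or HK2 (2.33 to 3.82). HC was 4.71 above NC, and HK differed from HC by -1.80 ± 1.01, which was not called. The general endothelial gene PECAM1 differed by 0.22 and was not called.

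Of 19 genes of the hypoxia-inducible factor pathway, SLC2A3, LDHA and CYGB were called, all higher, and the list's median was 0.10, with VEGFA, an inducer of vessel growth, at -0.48 and not called. CYGB, or cytoglobin, an oxygen-binding globin, was -2.69, -2.94 and -2.92 in NC and -2.28, -2.61, -2.25 and -2.77 in HK. It was 0.37 ± 0.13 higher although HK4 lay within NC, with HC at -0.03 ± 0.12 from NC and HK 0.40 ± 0.11 above HC (called). The CYGB call was lost with the HK and NC arrays alone, on slide 1 alone, and with normexp and the 75th percentile. The transporter SLC2A1 (0.55 ± 0.26) and HIF1A itself (0.45 ± 0.21) were just short of a call, and a dimmer HIF1A probe was called at 0.48 ± 0.20. Of 13 immediate early and stress genes only EGR1, an early growth response factor, was called, 0.31 ± 0.13 higher, with a median of -0.00 for the list, and it lost the call without NC1, HK3 or HK4 (0.18 to 0.39). None of 9 genes of cell death was called, and their median was -0.01.

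Among 25 hypothalamic peptide and neuroendocrine genes, the neuropeptide galanin (GAL) alone was called. It was -0.65, -1.45 and -1.64 in NC and -0.11, -1.04, 0.15 and 0.16 in HK, so that HK2 lay within NC. The difference was 1.04 ± 0.41 and 0.98 ± 0.40 at the other probe, HC was 0.78 ± 0.40 above NC without a call, and within slides the values were 0.47 and 1.80. The GAL call was lost without NC2, NC3, HK3 or HK4 (0.84 to 1.34). The appetite peptides AGRP (1.97 ± 1.42) and NPY (0.83 ± 0.75), the growth hormone releasing hormone GHRH (1.32 ± 1.13) and POMC (0.60 ± 0.56) were not called. NC2 was the lowest NC array for each of these 4 genes, at -5.82 for AGRP against -0.89 and -1.84. Of 11 genes of glutamate and GABA signalling none was called at its brightest probe. The median was -0.21, the lowest among lists of 5 or more genes, and the NMDA receptor subunit GRIN1, part of the target of ketamine, was at -0.32 ± 0.19 (not called), with 9 of the 11 differences negative.

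Growth and metabolic genes gave single calls. IGF1, the insulin-like growth factor, was -4.15, -4.43 and -4.31 in NC and -5.56, -4.36, -4.89 and -4.67 in HK. It fell by 0.57 ± 0.22 although HK2 was within NC, beside 0.48 ± 0.21 below NC for HC, and was the only call among 10 genes of its axis. It lost the call without NC1 or HK1 (-0.74 to -0.34). PPARGC1A, a coactivator of mitochondrial genes, was 0.32 ± 0.12 higher, but neither of its other probes was called, and the call was lost without NC2 or HK3 (0.23 to 0.36). In 16 genes of lipid and steroid metabolism, STAR was called higher and CPT1A and the fatty acid binding protein FABP5 lower, the last by 0.21, which lost its call without NC1, NC3, HK1, HK3 or HK4 (-0.26 to -0.15). Of 14 collagen and matrix genes, COL4A3 and COL2A1 were called, both lower, with a median of -0.06. Of 8 antigen presentation genes B2M alone was called, and all 8 differences were positive with a median of 0.53. None of 11 genes of protein degradation was called.

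**Figure D5:**
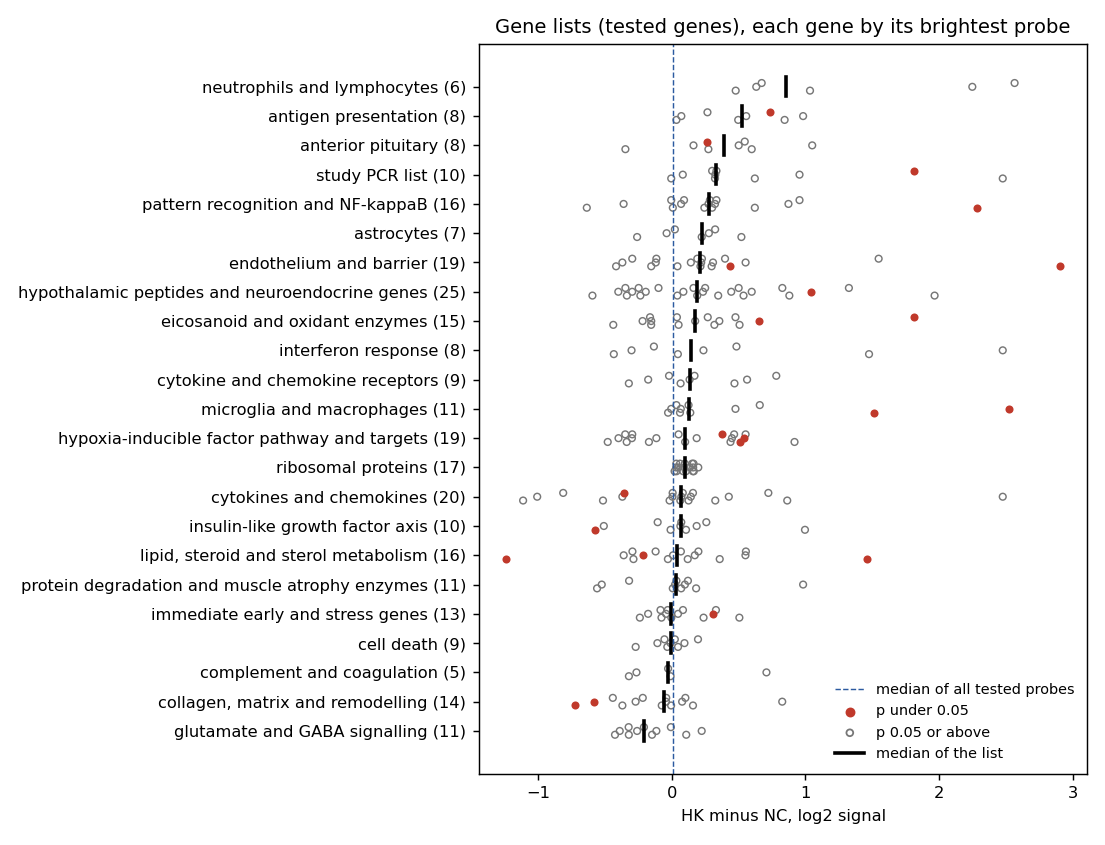
Difference between HK and NC in log2 signal (x axis) for the tested genes of each list with 5 or more tested genes, with the number tested in parentheses. Filled points were called, black bars are list medians, and the dashed line is the median of all tested probes (0.01). The list medians run from -0.21 for glutamate and GABA signalling to 0.85 for neutrophils and lymphocytes.

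Markers of tissue next to the hypothalamus were checked for uneven dissection. Of 8 anterior pituitary genes LHB alone was called, at 0.26 ± 0.09, while its other, dimmer probe, fitted without HK2, whose spot was left out there, was at 0.03 ± 0.38. The LHB call was lost without NC2 (0.23 to 0.31 over the arrays left out in turn). The list's median was 0.39 with 7 of 8 differences positive, and its mean level was -4.29 in NC2 beside -3.23 to -3.16 in the other NC arrays and -3.34 to -3.11 in HK. PRL and CGA, genes of pituitary hormones, were at 0.27 and 0.50 and were not called. Of the choroid plexus list TTR (-1.36 ± 1.33) and IGF2 (-0.51 ± 0.73) were tested and not called. TTR ranged from 0.36 to 2.26 in NC and from -1.55 to 1.38 in HK. None of 3 blood genes was called. HBB, the globin chain of red cells, was at 0.04 ± 0.49, the carbonic anhydrase CA1 at -1.49 ± 0.87, and AHSP, the chaperone of alpha-globin, at 1.19 ± 0.92. None of 7 astrocyte genes was called, with GFAP at 0.28 and AQP4 at -0.04. Their median was 0.22, 5 of 7 differences were positive, and the mean level of the list was 0.65 to 0.73 in NC and 0.77 to 0.90 in HK, without overlap. The mean levels of the lists of microglia and macrophages and of antigen presentation did not overlap between NC and HK either. The part of uneven dissection or cell content in the results was not tested.

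Among probes with no gene name, the 3 with the smallest p-values are those whose stretches are printed above. A_70_P058496 was -5.04, -5.04 and -4.98 in NC and -5.86, -6.05, -5.75 and -6.04 in HK. Both groups were tight and the HK fetuses were all lower, with 2 of 4 HK arrays above background. It fell by 0.90 ± 0.15 (limma, adjusted p = 0.336), with HC at -0.12 ± 0.14 from NC and HK 0.78 ± 0.13 below HC. A_70_P044251 was -3.78, -3.87 and -4.21 in NC and -5.52, -4.83, -5.46 and -5.22 in HK and fell by 1.30 ± 0.26. A_70_P033366 was -1.48, -1.62 and -1.51 in NC and -1.04, -1.25, -1.02 and -1.07 in HK and rose by 0.44 ± 0.09, with HK 0.28 above HC.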

How the data were processed

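Hypothalamic RNA of each fetus, labelled with cyanine 3, was put on a 1-color Agilent sheep array. Per the file headers, Feature Extraction 10.1.1.1 wrote the deposited scanner files, which give the linear intensity of 15744 spots, with background subtracted and no scaling between arrays. The log2 values that the authors also deposited, made by a method not given in the sources used here, served as an alternative.

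The 536 control spots and outlying spots (0.0801%) were left out and saturated spots kept. Processed intensity was put on the log2 scale, each array had its 75th percentile (1238.3 to 1596.2 units) subtracted, and replicate spots were averaged. Of 15008 probes, the 12250 above background on 3 or more arrays were tested. Of these, 1315 carried a gene name, from the array design or a RefSeq table (ARS-UI_Ramb_v3.0) that matched 726 of 750 accessions. Correlations between arrays of a group ran from 0.9631 to 0.9857, and none was a duplicate.

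A model of 4 group means was fitted with limma 3.58.1 in R 4.3.3 over all 16 arrays, with empirical Bayes moderation (13.7 total degrees of freedom) and Benjamini-Hochberg adjustment over all tested probes. The threshold for a call was that of the authors' methods. The procedure was tested on simulated data. For a probe that no array of a group measured above background, the fold is an approximate bound on the difference of the group means. It carries no error for the spread between fetuses. Each array of that group then enters at the probe's own value or at the dimmest value of any probe above background on that array, whichever is higher. The mean of these is set against the mean of the brighter group. Arrays of the brighter group that were themselves dim enter at their own values, so the bound is only approximate.

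Genes were named by rule: the 12 that rose most and the 12 that fell most, among called probes whose HK and NC arrays do not overlap and each by its most changed such probe, the PCR panel, called members of the lists with up to 4 others per list, and the 3 unnamed probes with the smallest p. The comparison, lists and rule were chosen with earlier results of these data known. Lists of choroid plexus (2 genes), blood (3) and mitochondrial respiratory chain (3) had few tested genes.

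Alternatives were other background corrections and normalizations, the deposited log2 values, other filters on dim probes, fewer groups in the model, slide as a block, each slide alone, the replicate number as a block, array weights, 1 probe per gene, and leaving out each NC and HK array. Probe sequences were read from the scanner files. The values of 1 interferon list gene are not reported here singly.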

Additional observations from a re-analysis of the deposited data

Results flagged for a closer look

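In 5 of 50 genes and probes examined, a single HK array stood apart from the others by more than Dixon's critical value for 4 arrays, which chance alone gives in about 1 in 20 groups. HK2 was the array set apart in 4 of the 5. LDHA was 2.52 in HK2 against 2.02 to 2.07 in the others, CR2 was -5.72 against -7.13 to -6.92, TLR4 was -4.62 against -4.92 to -4.90, and TNF was -3.17 against -5.66 to -5.43. ABCB1 was -0.56 in HK1 against -1.44 to -1.32.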

How the results depend on the processing

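No probe passed adjustment under any alternative except on slide 2 alone, where 3 did with a single NC array whose spread is assumed to be that of the other groups. The 837 probes called became 131 with normexp correction and the 75th percentile, 385 on slide 1 alone, 1911 with array weights and 45 with 1 probe per named gene, the last on 856 genes. Lower calls outnumbered higher ones except on each slide alone and with 1 probe per named gene. There were 202 higher and 183 lower on slide 1, and 28 higher and 17 lower with 1 probe per named gene. Leaving out 1 array gave 532 to 1388, and 412 to 729 of these were among the 837 with the same direction. The median of the PCR list stayed positive, from 0.18 to 0.62. Its called genes numbered 3 with HK and NC arrays only, 4 without HC arrays, 4 on slide 1 and 0 on slide 2, and from 1 to 2 leaving out 1 array.

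With the replicate number as a block, 831 probes were called, 571 of them shared with the 837, and 1 gene of the PCR list. Same-numbered HK and NC arrays deviated from their group means together with correlations of 0.08, 0.22 and 0.29, so the numbers were not taken to pair fetuses, and arrays of the same slide correlated in the same way. The block ended the call of GRIA4 among the 24 named genes.

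Of 471 values of the 24 named genes under alternatives, 346 kept direction and call, 123 lost the call and 2 turned in sign, with normexp and the 75th percentile (ENO3 -0.016, SLC25A10 -0.112). All 24 calls held with slide as a block, and 12 held whichever array was left out. Of 333 values of the 17 further list genes and unnamed probes, 97 lost the call and none turned. The replicate block also ended the calls of EGR1, GAL and FABP5. Uncalled genes of the PCR list also turned. With normexp and the 75th percentile TLR4 was -0.004, beside 0.30 in the main fit, and TNF was -0.045. TNF was -0.17 on slide 2, -0.17 with array weights, and -0.51 to 0.32 leaving out 1 array. CD14 was 0.12 with slide as a block, 0.73 on slide 1, 0.022 with the replicate block and -0.39 to 0.25 leaving out 1 array. The cause of these changes was not tested. The 3 NC and 4 HK arrays limit the precision, and genes near background have only approximate bounds.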

Other observations

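PABPC1, which binds the poly(A) tail of mRNA and acts with eIF4G in translation, was looked up after EIF4GI and EIF3A had been seen and was chosen for that reason. Its brighter probe was 0.27 ± 0.09 lower in HK than in NC and its other probe 0.26 ± 0.11 lower, and both were called, with HK 0.18 ± 0.08 below HC (called) at the brighter probe.

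Probes of a gene disagreed in further cases, and the genes given here were chosen after their values were seen. The early gene JUN was at -0.82 ± 0.35 (called) at a dim probe and at -0.04 ± 0.15 at its brightest, and NPY1R, a receptor for neuropeptide Y, was called at its dimmer probe and was at -0.25 ± 0.40 at the brighter, although these probes start 1 base apart. TSHR, the receptor for thyroid-stimulating hormone, was 2.04 ± 0.67 higher in HK (called) at its only tested probe, with 1 of 3 NC and 4 of 4 HK arrays above background and with arrays that overlapped.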
